A study of Mus musculus with 2 samples.

Results

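The Mir17hg cluster is a run of 6 miRNA genes, Mir17, Mir18, Mir19a, Mir20a, Mir19b-1 and Mir92-1, that lie within 1 long noncoding host gene on mouse chromosome 14. The members were taken by gene symbol from the 2202 miRNA genes counted in each library. Small RNA of whole adrenal glands was sequenced in 1 group of 2 libraries. The glands came from female mice of the B6CASTF1/J strain, a first-generation hybrid of C57BL/6J and CAST/EiJ, at 14 days of age, and the labels name no treatment or introduced allele. Replicate 1 was labelled as material of 3 females and replicate 2 as material of 1 numbered female, under the same donor identifier, so the spread between them cannot be called a spread between animals. No 2 conditions could be compared. The questions were how far the members of 1 transcript differ in level, whether that pattern held in both libraries, and how much of it touches sequences that the cluster shares with other genes.

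Mir17hg is transcribed as 1 primary RNA, from which the microprocessor complex cuts each hairpin separately. Dicer then trims the hairpins to mature miRNAs that repress messenger RNAs through their seed, bases 2 to 8. The locus is known as a MYC and E2F target that promotes proliferation and survival in developing tissues, with targets such as the proapoptotic gene Bcl2l11. Vertebrate genomes hold paralogous clusters that arose by duplication. In the mouse these are the X-linked Mir106a to Mir363 cluster and the Mir106b to Mir25 cluster in an intron of the replication gene Mcm7.

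The mature sequences are shown because the results turn on which of them are shared and which are only alike. They are those of RefSeq on GRCm38.p6, the assembly called mm10 in the deposited files, and all 6 members matched by symbol. Each is the arm usually taken as the main product, 5′ to 3′, with the seed in capitals. The counts themselves are per hairpin and do not tell the arms apart.
Mir17, miR-17-5p: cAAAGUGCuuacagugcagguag
Mir20a, miR-20a-5p: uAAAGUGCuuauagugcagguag
Mir18, miR-18a-5p: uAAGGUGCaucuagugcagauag
Mir19a, miR-19a-3p: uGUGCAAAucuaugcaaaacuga
Mir19b-1, miR-19b-3p: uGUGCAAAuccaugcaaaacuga
Mir92-1, miR-92a-3p: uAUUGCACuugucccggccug

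The 6 sequences carried 4 seeds. Mir17 and Mir20a had the seed AAAGUGC and differed at 2 of 23 positions. Mir18 had AAGGUGC. Mir19a and Mir19b-1 had GUGCAAA and differed at 1 of 23 positions, position 11 from the 5′ end. Mir92-1 had AUUGCAC and, at 57.1%, the highest share of G and C, against 34.8% in Mir19a, the lowest.

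In GENCODE M21 on mm10, all 6 hairpins lay on the plus strand of chromosome 14, in exon 2 of the host transcript and within a span of 836 bases. Mir17 (ENSMUSG00000065508.1) lay from 115043671 to 115043754 and Mir18 (ENSMUSG00000065403.1) from 115043851 to 115043946. Mir19a (ENSMUSG00000065416.1) followed from 115044000 to 115044081, and Mir20a (ENSMUSG00000065442.1) from 115044157 to 115044263. Mir19b-1 (ENSMUSG00000076256.1) ran from 115044305 to 115044391 and Mir92-1 (ENSMUSG00000076062.1) from 115044427 to 115044506. Gaps between neighbouring hairpins were 35 to 96 bases. Host models differed between annotations. GENCODE M21 placed Mir17hg from 115042879 to 115046727, with all 6 members inside. RefSeq started it at 115044390, so that of the members only Mir92-1 lay wholly inside its model.

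Shared copies touched Mir19b-1 and Mir92-1. The mature sequence of each of the other 4 members occurred in 1 annotated hairpin, while miR-19b-3p also occurred in Mir19b-2 and miR-92a-3p in Mir92-2, both of the X-linked cluster. A read of exactly that sequence cannot be assigned to 1 gene, and the deposited tables set reads mapping to several places apart. The hairpins of each pair are shown over the mature sequence with 6 bases on either side, with capitals at the bases that differ within the pair.
Mir19b-1: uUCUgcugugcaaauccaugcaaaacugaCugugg
Mir19b-2: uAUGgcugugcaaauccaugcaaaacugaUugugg
Mir92-1: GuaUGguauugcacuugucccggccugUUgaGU
Mir92-2: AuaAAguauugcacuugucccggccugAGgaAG

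In both pairs the copies differed from the 1st base after the mature sequence on. A read with 1 more base at its 3′ end therefore matched 1 gene only. At the 5′ end, 2 more bases told the Mir92 copies apart, whereas the Mir19b copies needed 3. Of 25 forms of the mature sequence with up to 2 bases more or fewer at each end, 13 were found in 1 hairpin for Mir92-1 and 10 for Mir19b-1. For Mir17, Mir18, Mir19a and Mir20a all 25 were. Over whole hairpins, 62 of 66 windows of 22 bases in Mir19b-1 and 58 of 59 in Mir92-1 occurred in no other miRNA gene. Among 141760 other GENCODE transcripts, the members' windows were found again only in Mir19b-2 and Mir92-2. Copies elsewhere in the genome were not analysed here.

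**Figure D1:**
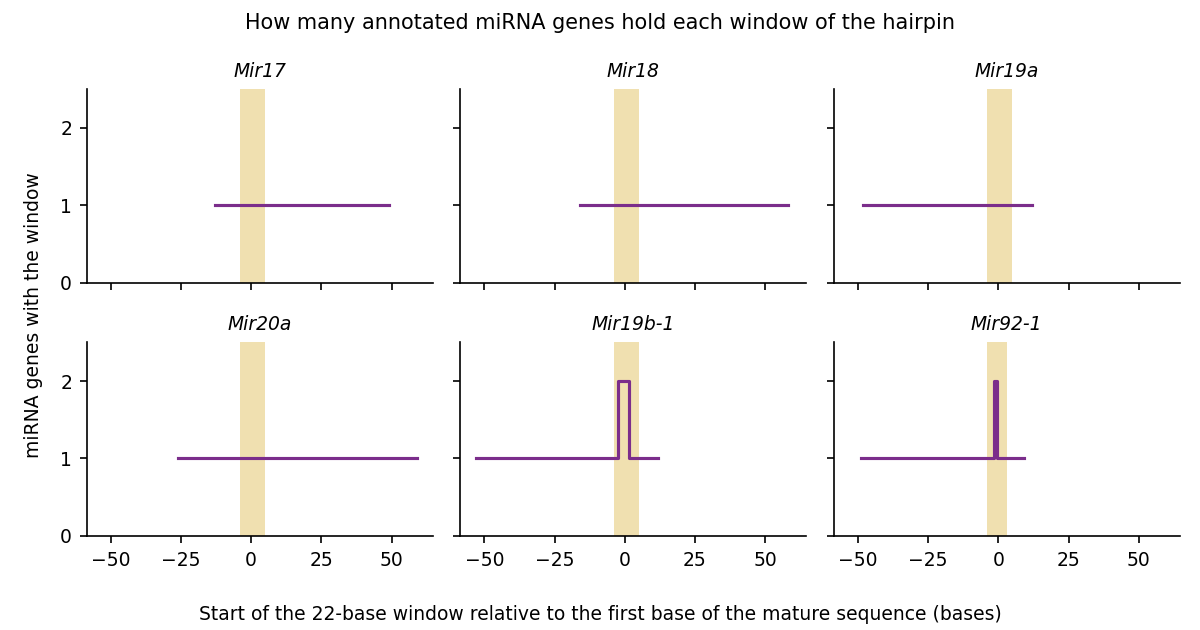
For each of the 6 miRNA genes, the number of annotated miRNA genes that hold a window of 22 bases, by the start of the window relative to the first base of the mature sequence (bases), with windows that cover at least 18 mature bases shaded. Only Mir19b-1 (4 windows) and Mir92-1 (1 window) reach 2 genes, and only over the mature sequence.

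The libraries held 10720796 and 11190481 reads, of which 3797107 and 5034257 were counted on miRNA genes. Reads set aside for mapping to several places made up 28.0% of replicate 1 and 25.0% of replicate 2, or 91.3 and 105 times the counts of the whole cluster. Levels are given as CPM, the counts of a gene scaled to a fixed total of miRNA counts, where a count of 3 stood for 0.790 and 0.596 CPM. The main mature sequences of the members are 21 or 23 bases long, so levels were compared between genes without a length correction. Reads carried no molecular identifiers, and all intervals cover counting error only. In a whole gland, fewer cells of a type and less miRNA per cell cannot be told apart.

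The cluster held 0.697% ± 0.239 of all miRNA counts (SD, n = 2), and its members spanned more than 3 orders of magnitude although they share a transcript. Its share was 0.866% (Wilson 95% interval from 0.857 to 0.876) for replicate 1 against 0.529% (0.522 to 0.535) for replicate 2. The total behind these shares includes the liver miRNA gene Mir122, at 0.290% and 21.5% of counts. After TMM scaling (trimmed mean of ratios over genes), the log2 ratio of the summed counts, replicate 2 over replicate 1, was -0.28 (-0.31 to -0.26). No count fell on the opposite strand of any member in either library.

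Mir17, which gives the cluster its name, was the most abundant member, with 18896 and 12316 counts in replicates 1 and 2, or 4976 and 2446 CPM (mean 3711 ± 1789, SD, n = 2). It ranked 39th of all genes on the mean. Mir20a, its seed partner, followed on the mean with 8280 and 5446 counts (2181 and 1082 CPM, mean 1631 ± 777). Mir92-1, at the 3′ end of the cluster, had 3747 and 7148 counts (987 and 1420 CPM, mean 1203 ± 306). It was the third member in replicate 1 and the second in replicate 2, above Mir20a, and the ranges of these neighbours over the libraries overlapped. Mir18 had 1957 and 1684 counts (515 and 335 CPM, mean 425 ± 128), below Mir17, Mir20a and Mir92-1 in both libraries.

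The miR-19 genes, whose product is known as the main oncogenic part of the cluster, were nearly without counts. Mir19b-1 had 11 and 20 counts (2.90 and 3.97 CPM, mean 3.43 ± 0.761, SD, n = 2). Mir19a had 3 and 2 counts (0.790 and 0.397 CPM, mean 0.594 ± 0.278). Its level is thus at or under what the limit for a count of 0 allows. In replicate 1, Mir17 had 6299 times the counts of Mir19a (counting interval 2142 to 18522), and in replicate 2 6158 times (1689 to 22457).

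Mir19a, whose mature sequence and all 25 of its forms occurred in 1 hairpin, had the lowest count of the 6 members. Mir92-1 and Mir19b-1 both have a copy of the mature sequence elsewhere, and Mir19b-1 had 0.00294 and 0.00280 times the counts of Mir92-1. Each X-linked copy had fewer counts than its partner in the cluster, with 1 and 0 for Mir19b-2 and 171 and 181 for Mir92-2. Such counts hold only reads that could be assigned to 1 copy, so they need not show the output of each locus. Why the miR-19 genes were low was not tested. The levels of different miRNAs were not calibrated against known amounts, so ratios between members are ratios of counts.

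**Figure D2:**
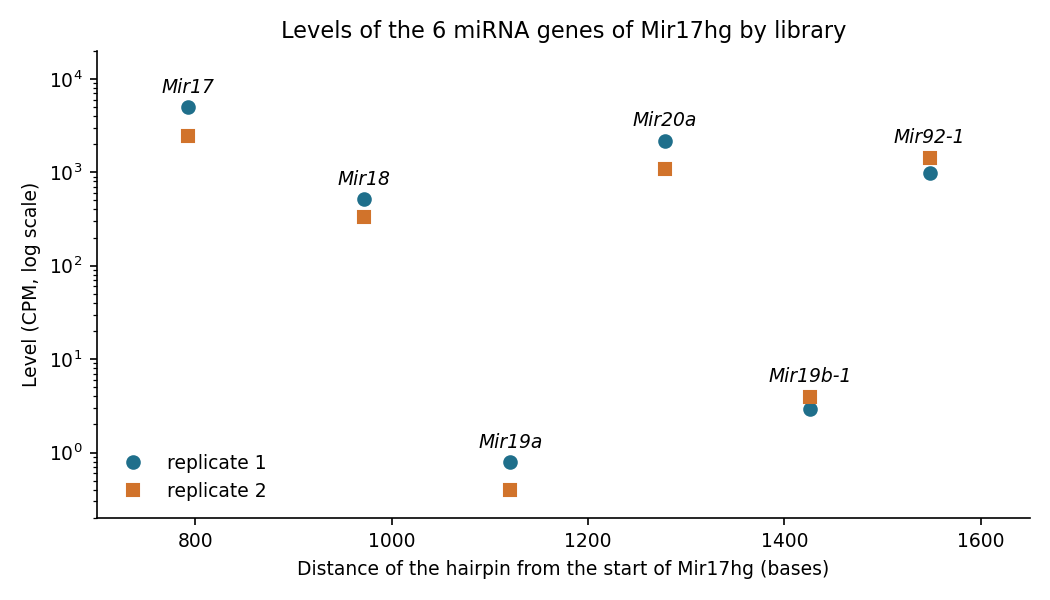
Level of each member (CPM, log scale) against the distance of its hairpin from the start of Mir17hg (bases), with replicate 1 as circles and replicate 2 as squares. Mir19a and Mir19b-1 lie between 0.397 and 3.97 CPM and the other 4 members between 335 and 4976 CPM, with no steady rise or fall along the transcript.

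Shares within the cluster do not depend on the scaling between libraries. They leave out reads of exactly miR-19b-3p or miR-92a-3p, which were set aside. Mir17 made up 57.4% of the cluster's counts in replicate 1 and 46.3% in replicate 2 (Wilson 95% interval of the latter from 45.7 to 46.9). Mir20a made up 25.2% (24.7 to 25.6) and 20.5%. Mir92-1 moved the other way, from 11.4% (11.1 to 11.7) to 26.9% (26.3 to 27.4). Mir18 held 5.95% (5.70 to 6.21) and 6.33% (6.04 to 6.63), with overlapping intervals. Mir19b-1 held 0.0334% (0.0187 to 0.0599) and 0.0751% (0.0487 to 0.116), and Mir19a 0.00912% and 0.00751%.

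**Figure D3:**
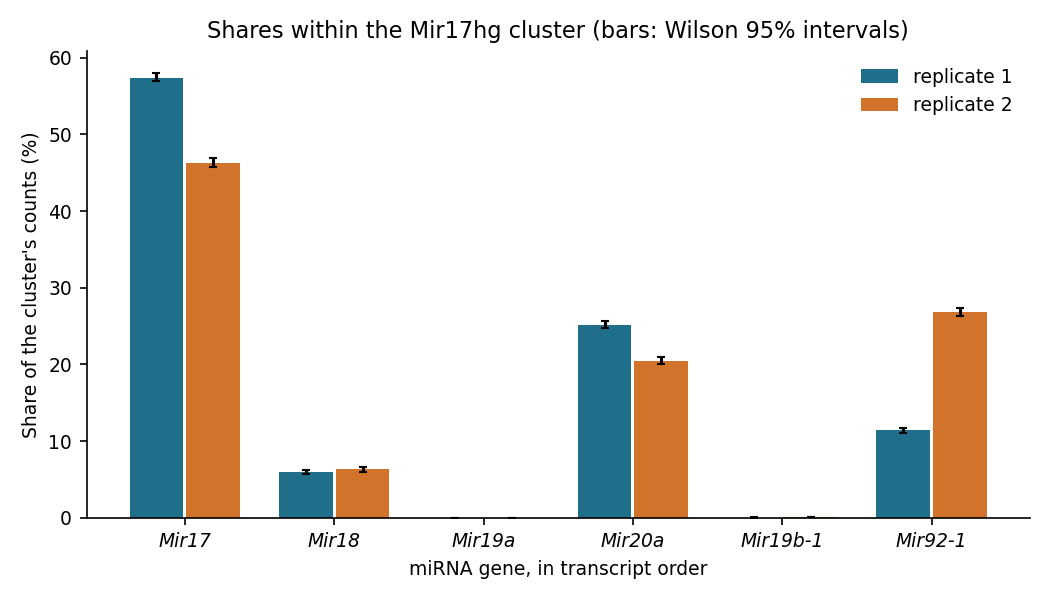
Share of the cluster's counts (%) taken by each member in replicate 1 and replicate 2, in transcript order, with Wilson 95% intervals. The share of Mir92-1 is 11.4% in replicate 1 and 26.9% in replicate 2, while the bars of Mir19a and Mir19b-1 are too low to be seen.

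Among pairs of members, Mir17 and Mir20a kept their ratio. Mir17 had 2.28 times the counts of Mir20a in replicate 1 (2.22 to 2.34) and 2.26 times in replicate 2 (2.19 to 2.33). The ratio of Mir17 to Mir18 was 9.66 (9.22 to 10.1) and 7.31 (6.95 to 7.70), outside each other's counting interval. The ratio of Mir17 to Mir92-1 fell from 5.04 (4.87 to 5.22) to 1.72 (1.67 to 1.77), a 2.93-fold change. Mir20a to Mir92-1 changed 2.90-fold, from 2.21 to 0.762. Mir19b-1 to Mir92-1, the members with shared copies, stood at 0.00294 (0.00164 to 0.00526) and 0.00280 (0.00181 to 0.00432). Within the related clusters, Mir93 had 2.76 and 2.75 times the counts of Mir106b, and Mir106a 0.867 and 0.894 times those of Mir20b.

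Between libraries, 3 of the 5 members with at least 10 counts in each had lower scaled counts in replicate 2 and the other 2 had higher ones, and none was called. A gene was called when the exact two-sided binomial test of its 2 counts gave a Benjamini-Hochberg adjusted p under 0.05 and the absolute log2 ratio was at least 1. By that rule 0 of 5 members were called, against 17.9% of the 358 genes tested. By the adjusted p alone 4 of 5 passed, against 67.9% of all genes, and the same number had an unadjusted p under 0.05. In edgeR's exact test with the dispersion estimated from these 2 libraries, 0 of 5 members passed, against 1.68% of all genes, and 0 had an unadjusted p under 0.05. The dispersion in edgeR's test came from the difference between the same 2 libraries that it compared, so only extreme genes could pass it. The tests set the reads of 2 libraries against each other, not conditions or animals.

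Mir17 had a log2 ratio of replicate 2 over replicate 1 of -0.59 (95% counting interval -0.63 to -0.56) and Mir20a one of -0.58 (-0.63 to -0.53). Mir18 stood at -0.19 (-0.29 to -0.10). Mir92-1 stood at 0.95 (0.90 to 1.01), just inside the ratio minimum. Mir19b-1, from 11 and 20 counts, stood at 0.86 (-0.25 to 2.09), with an adjusted p of 0.149 in the exact binomial test. Mir19a was not tested. The median over the 5 members was -0.19 and that over all tested genes -0.06.

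The size of these ratios depends on the scaling, while the sign of each member's ratio was the same under every scaling tried. With library totals in place of TMM, Mir17 and Mir20a were called lower, at -1.02 and -1.01, where 26.8% of all genes were called. The median of all genes was then -0.48, and 18 genes were called higher and 78 lower, against 33 and 31 with TMM. With DESeq2 size factors Mir92-1 was called higher, at 1.01, where 19.0% of all genes were called.

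The opposite signs of Mir92-1 and Mir17 were set beside all genes with an arm shared between genes. Of 48 such genes tested the median log2 ratio was 0.11, with 2 called higher and 4 lower, or 12.5% called. Of 275 tested genes with no shared arm it was -0.07, with 27 called higher and 23 lower, or 18.2% called. Over all tested genes 17.9% were called. Mir92-1 and Mir17 stood 1.55 apart. The copy Mir92-2 stood at 0.10 (-0.20 to 0.41), and its interval did not overlap that of Mir92-1. The part of shared copies in the ratio of Mir92-1 was not tested.

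**Figure D4:**
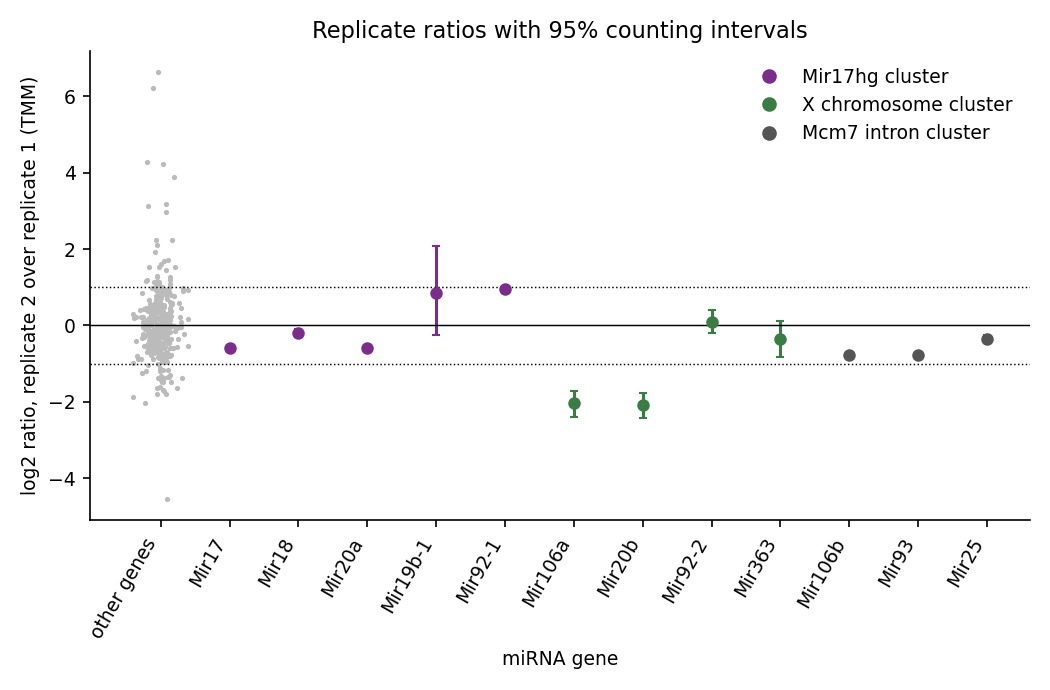
Log2 ratio of replicate 2 over replicate 1 after TMM scaling for the members and paralogs with at least 10 counts in each library, with 95% counting intervals, beside all other tested genes in grey. Dotted lines mark the ratio minimum of 1 in either direction, and Mir92-1 at 0.95 and Mir17 at -0.59 lie on opposite sides of 0.

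Since miRNAs with the same seed are known to have overlapping targets, levels were also summed by seed. The group of Mir17 and Mir20a had 7 genes in RefSeq and summed to 14686 and 6719 CPM. Such sums are not TMM scaled, and their totals include Mir122, at 0.290% and 21.5% of counts. The members made up 48.7% (48.3 to 49.1, Wilson) and 52.5% (52.0 to 53.0) of its counts. Most of the rest came from the Mcm7 intron, with Mir93 at 5364 and 2312 CPM and Mir106b at 1943 and 840 CPM. After TMM scaling, Mir93 and Mir106b each had a log2 ratio of -0.78. The X-linked Mir20b and Mir106a had 451 and 391 counts in replicate 1 and 104 and 93 in replicate 2. They were the only 2 called of the 6 genes of the seed group tested, at log2 ratios of -2.09 and -2.04. Over all tested genes 17.9% were called. Mir106a differs from miR-17-5p at 1 and Mir20b at 2 of 23 positions. Whether Mir17 reads with a changed base added to the counts of Mir106a or Mir20b was not tested. The sequences of these relatives of Mir17 are shown because the differences are few.
Mir106a, miR-106a-5p: cAAAGUGCuaacagugcagguag
Mir20b, miR-20b-5p: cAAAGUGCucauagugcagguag
Mir106b, miR-106b-5p: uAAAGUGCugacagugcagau
Mir93, miR-93-5p: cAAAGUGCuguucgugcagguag

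The group of Mir92-1 also had 7 genes and summed to 1722 and 1867 CPM, again without TMM scaling. Reads of exactly miR-92a-3p match both Mir92-1 and Mir92-2 and were set aside. The group's sums and shares therefore leave them out, while its genes with unshared sequences have no such loss. Mir92-1 made up 57.3% of the group's assigned counts in replicate 1 (56.1 to 58.5) and 76.1% in replicate 2 (75.2 to 76.9). Mir25, its relative in the Mcm7 intron, stood at 2071 and 1599 counts, with a log2 ratio of -0.35 (-0.45 to -0.26). Mir32 had 384 and 234 counts, and Mir363 of the X-linked cluster 88 and 68. Of the 6 genes of the group tested 1 was called, beside 17.9% of all tested genes. It was Mir92b, named after its values were seen, which was higher in replicate 2, at 79 and 169 counts. The group of Mir18 consisted of Mir18 and the X-linked Mir18b, which had 18 and 0 counts, so that Mir18 made up 99.1% of it in replicate 1. The miR-19 group held only Mir19a, Mir19b-1 and Mir19b-2 and came to 15 and 22 assigned counts. Reads of exactly miR-19b-3p, which Mir19b-1 and Mir19b-2 share, are left out of that sum.

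**Figure D5:**
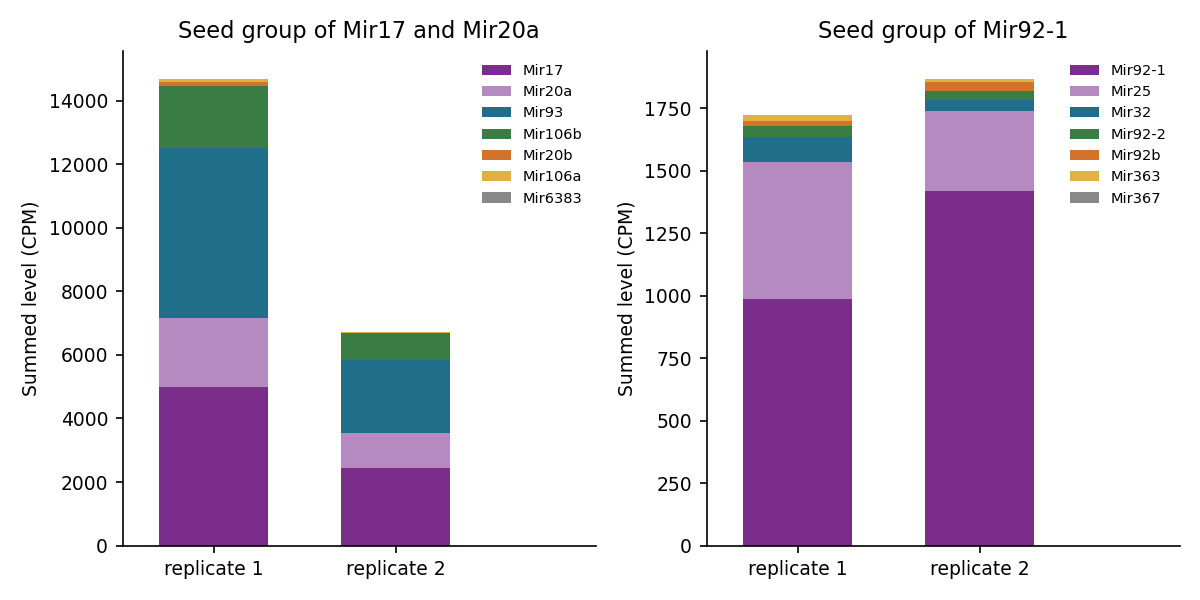
Summed level (CPM) of the genes that share the seed of Mir17 and Mir20a (left) and of Mir92-1 (right) in each library, with 1 colour per gene. In replicates 1 and 2 the first group stands at 14686 and 6719 CPM. The second stands at 1722 and 1867 CPM, with a larger part from Mir92-1 in replicate 2. Reads of exactly miR-92a-3p, which Mir92-1 and Mir92-2 share, are left out. CPM are not TMM scaled, and their totals include Mir122, at 0.290% and 21.5% of counts.

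Set beside its paralogs, the Mir17hg cluster held 51.5% of the counts of the 3 clusters in replicate 1 (51.1 to 51.9) and 59.8% in replicate 2 (59.3 to 60.2). The Mir106b to Mir25 cluster held 46.7% and 39.2%, and the X-linked cluster 1.75% and 1.00%. These shares are not on equal terms. Reads of exactly miR-19b-3p or miR-92a-3p are missing from the Mir17hg and X-linked clusters. The main mature sequences of Mir106b, Mir93 and Mir25 are unshared. Of the 9 paralogs, 7 were tested, 2 were called lower and 0 higher, beside 17.9% called over all tested genes. Their median log2 ratio was -0.78, against -0.06 over all tested genes. Among 12 groups of at least 3 neighbouring genes with a mean of 100 counts or more, the range of log2 ratios in the Mir17hg cluster, 1.55, was the fourth widest. That range rests on 4 members, without Mir19a and Mir19b-1. The wider groups held 33, 3 and 11 genes, and ranges of groups of unlike size are not directly comparable. The median range was 1.37. The Mcm7 intron cluster had the narrowest, 0.43.

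The genes nearest to the members in level over the 2 libraries, by the distance between pairs of log2 CPM values, came in part from the paralogs. For Mir17 they were Mir7b (distance 0.07) and Mir93 (0.14), and for Mir18 they were Mir25 (0.11) and Mir341 (0.19). For Mir20a they were Mir324 (0.22) and Mir298 (0.36). For Mir92-1 they were Mir145a (0.37) and Mir409 (0.48). For Mir19a and Mir19b-1 no gene with a mean of 100 counts lay close, and the nearest were Mir103-2 (5.50) and Mir505 (3.47).

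Markers of other cells moved between the libraries too. Besides Mir122, the skeletal muscle gene Mir206 had 106 and 7815 counts and was called higher in replicate 2. Of the other 3 muscle genes listed, Mir1a-1 was at 0 in both libraries, and Mir1a-2 and Mir133b had at most 4 counts. The 3 erythroid genes summed to 0.224% and 0.0560% of counts, with Mir451a called lower at a log2 ratio of -2.03 and Mir144 and Mir486 at -0.37 and -0.12. The 5 leukocyte genes summed to 0.342% and 0.220%. Of these Mir142 was called lower at -1.44, while the other 4 lay between 0.03 (Mir155) and 0.61 (Mir150) and the median was 0.27. Endothelial Mir126a held 14.2% and 14.1% of counts, with a log2 ratio of 0.41 after TMM scaling. The 3 neuroendocrine genes held 3.42% and 1.78%, with a median log2 ratio of -0.51. The 6 genes listed as steroidogenic or adrenal-linked summed to 4.27% and 0.969%, of which Mir21a made up 4.14% and 0.890%. Mir503 is in this list and also among the proliferation-linked genes. Mir21a was called lower at -1.79 and Mir383 higher at 2.11, from 51 and 219 counts, and the median of the 6 was -0.31. Other proliferation-linked miRNA genes, such as Mir15b, Mir16-2 and Mir322, had all 8 members tested, 0 called, beside 17.9% of all genes, and a median log2 ratio of -0.22. They summed to 3.34% and 1.72% of counts, of which Mir322 made up 2.59% and 1.13%, and Mir15a and Mir15b stood at log2 ratios of 0.42 and 0.03. The part of cell makeup in the members' ratios was not tested.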

How the data were processed

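Each deposited table holds raw counts for 1 library, as whole numbers in 3 columns per miRNA gene, below 4 summary lines. Per the text files beside them, the build was mm10 and the annotation GENCODE M21. No aligner or counter is named in the sources used here. The column read as the gene's own strand was the one with more counts in both libraries, since no source defines the columns. All 2202 identifiers matched GENCODE M21, and summary lines stayed out of totals. The libraries did not agree within sampling noise (chi-square statistic 1230149 on 422 degrees of freedom), so they were kept as 2 replicates.

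Log2 ratios used TMM factors over genes with at least 10 counts in each library and a prior count of 0.5, with exact Clopper-Pearson 95% intervals. A quasi-likelihood test needs more than 1 library on a side, so an exact binomial test with Benjamini-Hochberg adjustment over all 358 genes took its place. The code was tested on simulated data. Shared sequences were sought as exact matches on both strands. The text names the members, all paralogs, up to 3 most abundant genes per seed group and the 2 nearest genes to each member. The members, lists and rules were chosen with earlier results of these data known. Tools were Python 3.11.15, scipy 1.17.1, R 4.3.3, edgeR 4.0.16 and DESeq2 1.42.0.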

Additional observations from a re-analysis of the deposited data

How the results depend on the processing

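Of 104 alternative values, 82 were classed as the same, and no log2 ratio reversed. Ratios of that class kept their direction and call, and levels and shares moved by less than the spread. Numbers of genes only had to stay near the main value, so 96 genes called with library totals, against 64, were classed as the same. Part of this sameness was fixed in advance. With 2 libraries, leaving 1 out always moves the mean by less than the spread. The members had no counts on the opposite strand, so the column of both strands could not change their shares within the cluster. Scaled to all reads in place of miRNA counts, the members stood at 1432 (Mir17), 167 (Mir18), 0.229 (Mir19a), 629 (Mir20a), 1.41 (Mir19b-1) and 494 (Mir92-1), since the denominator is larger. In the column of both strands, Mir18 stood at 562 CPM, Mir19b-1 at 4.52 and Mir92-1 at 1583, over a smaller total. Among the members with an unshared mature sequence alone, shares within the cluster were 64.1% for Mir17, 28.2% for Mir20a, 7.69% for Mir18 and 0.0103% for Mir19a, from fewer genes. With DESeq2 size factors 1 member was called (Mir92-1 at 1.01), with library totals 2 (Mir17 at -1.02, Mir20a at -1.01) and with no ratio minimum 4. Over all genes, 64 were called, against 37 with a minimum of 100 counts, 6 in edgeR's exact test and 243 with no ratio minimum. Leaving out either replicate left the cluster share between 0.529% and 0.866%. No paired analysis was possible because there is 1 group, and leaving out a replicate gives no ratio.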
